A study of Sus scrofa with 14 samples.

Results

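Claudins and occludin are the transmembrane proteins of the tight junction, the seal near the lumen between neighbouring epithelial cells. Occludin and some claudins tighten this seal, whereas other claudins form pores that let selected ions or water pass between the cells. Which claudins a segment of intestine makes sets in large part how leaky it is, and their expression in the gut changes along its length and from crypt to villus. The members described here were the probes whose RefSeq accession belongs to OCLN, the gene of occludin, or to a gene with a symbol starting CLDN, or that the supplementary list of the study names so. There were 28 such probes out of 43603 on the array, for 22 genes out of 3020 that could be named. Of the 25 genes of this family in the naming reference, 3 had no such probe, namely CLDN1, CLDN25 and CLDND2, so no value is given for CLDN1. Accessions gave 27 of the probes. The remaining probe, for CLDN23, was on the list only, and that list was made from fold changes in these pigs, so its values are a description.

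In the pig small intestinal segment perfusion (SISP) model, segments of jejunum with intact blood supply, lying at 31% to 58% of the length of the small intestine, were filled with 20 ml of fluid and perfused for 6 h in anaesthetised male piglets of 5 weeks and 8.2 kg. An Sd segment received saline put through the in vitro digestion, and a segment in the same piglet received digested yellow onion (YOd) or digested white onion (WOd). Mucosal scrapings of 14 segments were measured on 1-colour Agilent arrays: Sd and YOd in pigs 1, 2 and 4, and Sd and WOd in pigs 5, 6, 7 and 8. Each pig is thus its own control, and pig 3 was not analysed here. Because each onion was given to its own set of pigs, the onion and the pigs cannot be told apart in a comparison of YOd with WOd. According to the methods, onion digests were diluted in peptone and the Sd digest in saline solution, and the Sd digest was diluted more strongly. The onion, this fluid and the amount of digest thus cannot be told apart either.

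Levels and ratios are given on the log2 scale, a level being the processed signal of a probe over the 75th percentile of its array. A level of 0 is therefore the 75th percentile, and a floor was set at -4.43. On the median array 64.2% of probes stood well above background, and arrays held 545 to 964 saturated probes. The arrays lay on 5 slides scanned in 2 sessions. Only pigs 2 and 7 had their arrays on different slides, and these were scanned in different sessions. Enterocyte markers bore out the tissue label, since all 7 of the 12 listed that had a probe were above the floor on every array and 6 of them, FABP2 among these, were saturated on all 14. Smooth muscle markers such as ACTA2 and DES were above the floor on all arrays as well.

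Family members fell into 3 classes by signal. CLDN8, CLDN16, CLDN17 and CLDN20 were at the floor on all 14 arrays, and CLDN14 and CLDN22 were above it on 1 array each. CLDN16 and CLDN14 are best known from the kidney. CLDN3 was saturated on 12 arrays and CLDN7 on 9 arrays. The remaining 14 genes were measured without saturation, and with CLDN3 and CLDN7 they made the 16 genes that entered the tests. Levels of different probes are not compared, since each probe has its own response.

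**Figure D1:**
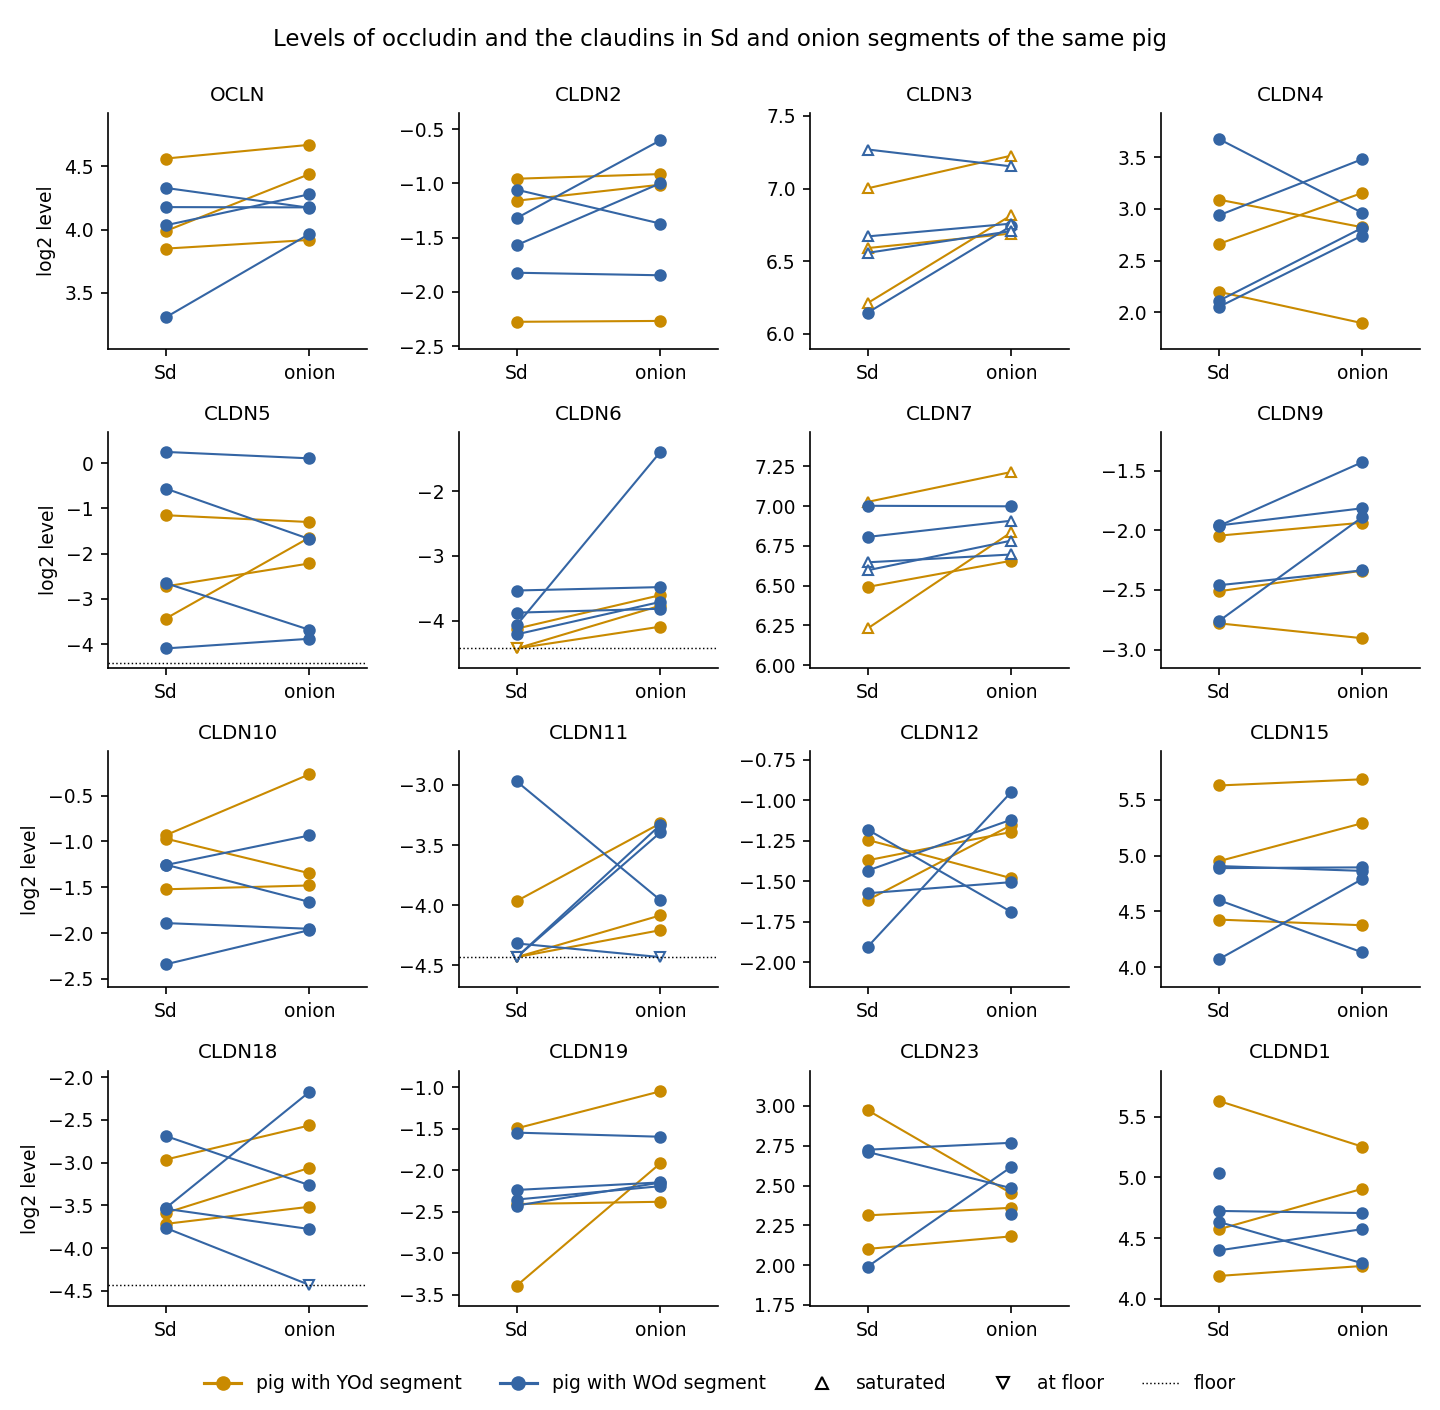
Log2 level (signal over the 75th percentile of the array) of each tested member in the Sd and the onion segment of a pig, joined by a line, with yellow for the 3 YOd pigs and blue for the 4 WOd pigs. Open triangles pointing up are saturated values and open triangles pointing down are values at the floor of -4.43. Lines cross in most panels, and only the CLDN6 lines all run upward.

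Across the family, few members differed between onion and Sd segments past the thresholds. A gene was called affected at a raw limma p below 0.05 with a fold change above 1.5. No member was called in YOd/Sd, where 4.63% of all 2464 genes tested were, and no member was called in WOd/Sd, where 1.18% of 2467 genes were. At a raw p alone below 0.05, 3 of the 16 members passed in YOd/Sd and 0 in WOd/Sd. Over both onions together, 1 member was called, CLDN6, against 1.22% of 2453 genes. In the test of the YOd effect minus the WOd effect 1 member was called, CLDN5, against 3.64% of 2553 genes. No named gene passed the Benjamini-Hochberg adjustment in limma in these 4 comparisons, although 275, 68, 168 and 110 genes had a raw p below 0.05, and the lowest adjusted p was 0.388, in YOd/Sd.

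The median log2 fold change of the 16 members was 0.17 in YOd/Sd, beside 0.14 over all genes, and 0.16 in WOd/Sd, beside 0.04 over all genes. Without CLDN3 and CLDN7 these medians were 0.12 and 0.17. Over the 7 pigs the fold change was above 0 for 13 of the 14 unsaturated members. For all genes it was above 0 in 1735 of 2453. The members here include CLDN23 by its listed probe, at 0.0077, where its probe found by accession gave -0.19. Ratios were above the median of all genes for 6, 6 and 10 of 14 unsaturated members in pigs 1, 2 and 4. In pigs 5, 6, 7 and 8 this held for 4 of 13, 7 of 14, 8 of 14 and 9 of 13. Members on an array share its scaling. Without scaling between arrays the median over all genes in YOd/Sd was -0.16 instead of 0.14.

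Pigs differed in how far the members moved. The following counts leave out the saturated CLDN3 and CLDN7 and the listed CLDN23 probe. In pig 2, 0 of 13 members differed more than 1.5-fold between its segments, and 2.62% of all genes did. In pig 7 it was 5 of 13 members, beside 18.9% of all genes, and in pig 4 it was 1 of 13, beside 24.3%. In pigs 1, 5 and 6 it was 4, 3 and 4 of 13, beside 15.3%, 16.6% and 16.2% of all genes. Pig 8 had 4 of 12, beside 12.3%. The within-pig ratios of the 16 tested members had a median SD of 0.39 over the pigs. Sd segments alone, which received the same fluid, had a median SD of 0.44 for the members, a spread between pigs of about the size of that of the ratios. Over all 2453 tested genes the median SD was 0.33 for the ratios and 0.39 for the Sd levels, so this was not particular to the members.

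**Figure D2:**
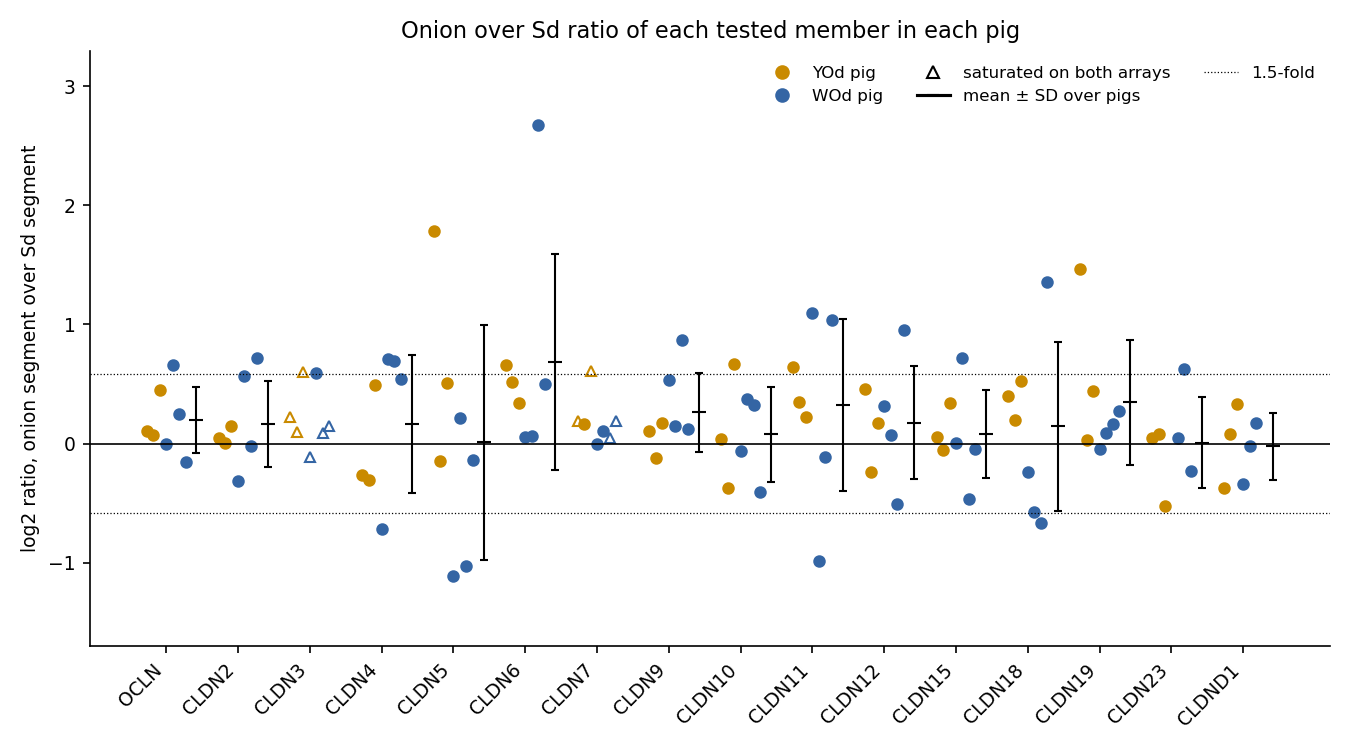
Log2 onion over Sd ratio within a pig for each tested member, with 1 point per pig (YOd pigs yellow, WOd pigs blue, left to right pigs 1, 2, 4, 5, 6, 7 and 8) and the mean ± SD over pigs in black. Open triangles are pairs saturated on both arrays, for which no ratio can be read, and no mean is drawn for CLDN3 and CLDN7. CLDN6 in pig 7 lies at 2.68, above every other point.

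Occludin belongs to the MARVEL proteins of the junction and takes part in its regulation. OCLN had 3 probes, all above the floor on every array, and the brightest stood for the gene. In the Sd segments of pigs 1, 2 and 4 its log2 level was 4.56, 3.85 and 3.99, and in their YOd segments it was 4.67, 3.92 and 4.44. In pigs 5, 6, 7 and 8 the Sd level was 4.18, 3.31, 4.03 and 4.33 and the WOd level 4.18, 3.97, 4.28 and 4.17. Sd and onion levels overlapped throughout, and the Sd segment of pig 6 was the lowest of all.

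YOd/Sd gave OCLN a log2 fold change of 0.21 (SE 0.15, limma adjusted p = 0.471), and WOd/Sd gave 0.19 (SE 0.18, limma adjusted p = 0.998). Over the 7 pigs it was 0.20, with a 95% interval in limma from -0.06 to 0.45. The exact two-sided sign-flip permutation test over the pigs gave p = 0.125, and the ratio was above 0 in 5 of 7 pigs. Without scaling between arrays the YOd/Sd value was -0.10.

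The other OCLN probes gave mean ratios of 0.19 ± 0.34 and 0.14 ± 0.44 (SD, n = 7 pigs), beside 0.20 ± 0.28 for the brightest. In pig 6 the 3 probes gave log2 ratios of 0.66, 0.77 and 0.93, the highest of any pig for each of them. In 5 of 7 pigs all 3 probes had the same sign.

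CLDN3, CLDN4 and CLDN7 are claudins of the intestinal epithelium, and CLDN3 and CLDN4 are known for tightening the junction. CLDN3 and CLDN4 lie next to each other in the naming reference. CLDN3 was saturated on both arrays of 6 pigs, and CLDN7 on both arrays of 4 pigs, so no fold change can be given for these pigs. In pig 4, for instance, the raw CLDN3 signal was 58935 in Sd and 58073 in YOd, close to the limit of the scanner on both arrays. After scaling, the same pair gave a log2 ratio of 0.60, while the 75th percentiles of these arrays differed by 0.62. For CLDN7 in pig 4 the scaled ratio was 0.61 and the unscaled ratio -0.02. Over all pairs saturated on both arrays, unscaled ratios stayed within 0.04 for CLDN3 and 0.03 for CLDN7 on the log2 scale.

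**Figure D3:**
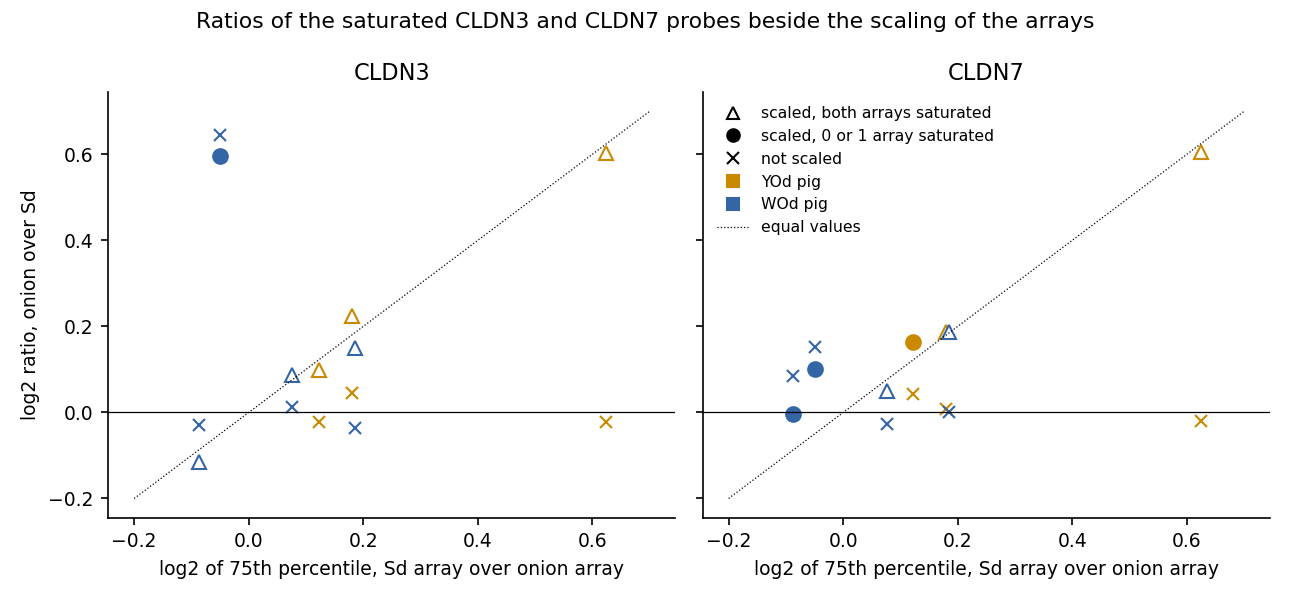
Log2 ratio of onion over Sd for CLDN3 (left) and CLDN7 (right) in each pig, plotted against the log2 ratio of the 75th percentiles used for scaling. Triangles (saturated on both arrays) follow the dotted line of equal values, whereas crosses (the same pairs not scaled) lie near 0. For CLDN3 in pig 6, not saturated, the ratio is 0.60 scaled and 0.65 unscaled.

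CLDN3 was below saturation on both arrays in pig 6 only. There the signal was 34702 in the Sd segment and 54277 in the WOd segment, 1.56-fold higher. For CLDN7 the pigs without saturation were 2 and 5, with log2 ratios of 0.16 in pig 2 and -0.0033 in pig 5. So few unsaturated pigs gave no test of an onion effect for either gene.

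CLDN4 was not saturated, and its Sd and onion levels overlapped for both onions. Its Sd levels were 3.09, 2.20 and 2.66 in pigs 1, 2 and 4, and their YOd levels were 2.82, 1.89 and 3.16. In pigs 5, 6, 7 and 8 the Sd levels were 3.68, 2.11, 2.05 and 2.94 and the WOd levels 2.96, 2.82, 2.74 and 3.48. With WOd, CLDN4 was thus higher in pigs 6, 7 and 8, by 0.71, 0.69 and 0.55, and lower in pig 5, by a log2 ratio of -0.72. The log2 fold change was 0.31 in WOd/Sd (SE 0.26, limma adjusted p = 0.998). Without pig 5 it was 0.65 (SE 0.18), which passed the thresholds, as 56 of 2454 genes did in that setting. Over the 7 pigs the ratio was 0.16 ± 0.58 (SD, n = 7), and the exact sign-flip permutation p was 0.484.

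Pore-forming claudins passed no test. CLDN2 forms a pore for cations and water, and its ratio was 0.16 ± 0.36 (SD, n = 7), from -0.31 in pig 5 to 0.72 in pig 8. In the YOd pigs CLDN2 hardly differed between segments, with log2 ratios of 0.04, 0.01 and 0.15. CLDN15, a pore for sodium in the small intestine, had Sd levels from 4.07 to 5.63 and onion levels from 4.13 to 5.68, and its ratio was 0.08 ± 0.37. The values of CLDN15 were furthest apart within pigs 6 and 7, at 0.72 and -0.47.

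CLDN10, which has isoforms for cations and for anions, had a ratio of 0.08 ± 0.40, from -0.41 in pig 8 to 0.66 in pig 4. CLDN12 gave 0.18 ± 0.48, with 0.95 in pig 8 and -0.51 in pig 7. For these 4 genes, the exact sign-flip permutation p lay between 0.297 for CLDN2 and 0.703 for CLDN10, and 7 pigs allow no p below 0.0156.

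Pig 6 had high ratios for 5 of the members named so far. There the log2 ratio was 0.66 for OCLN, 0.71 for CLDN4, 0.72 for CLDN15, 0.57 for CLDN2 and 0.60 for CLDN3, and all 5 had a lower Sd level in pig 6 than the median of the Sd segments. CLDN2 was higher still in pig 8 (0.72), and in pig 6 CLDN7 gave 0.10, CLDN10 0.37 and CLDN12 0.07. Markers of other cell types differed to varying degrees in the same pair of segments. The summed level of the lymphocyte markers, 7 of 8 with a probe, was lower in the WOd segment, with a log2 ratio of -1.08, and that of the smooth muscle markers, 4 of 6 with a probe, had a ratio of -0.21. Endothelial markers gave 0.06 and fibroblast markers 0.09. CCL20, the only M cell and follicle marker with a probe, went from 5.62 in Sd to 2.14 in WOd, a log2 ratio of -3.48. Mean log2 ratios were 0.57 for goblet markers (2 genes), 0.14 for enteroendocrine markers (4 genes) and -0.24 for crypt and cell cycle markers (4 genes). Over the 4 Sd segments of the WOd pigs the summed lymphocyte level ranged from 1.57 to 3.84, and over the WOd segments from 1.57 to 3.80. The part of these cell types in the ratios of pig 6 was not tested.

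CLDN5 is the claudin of blood vessel endothelium, and its Sd levels had the widest range of the tested members. In Sd segments its log2 level ran from -4.10 in pig 6 to 0.25 in pig 8, a range of 20.3-fold, where the next widest gene by its brightest probe, CLDN19, ranged over 3.71-fold. The unscaled Sd signals of CLDN5 in pigs 1, 2 and 4 were 41.6, 278 and 120, and the YOd signals 127, 230 and 111. In pigs 5, 6, 7 and 8 they were 261, 28.6, 93.2 and 739 in Sd and 127.8, 34.3, 43.3 and 589 in WOd.

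The CLDN5 probe is also on the list of the study, but was chosen here by its accession. Its log2 ratios were 1.79, -0.15 and 0.51 in the YOd pigs 1, 2 and 4, and -1.12, 0.21, -1.03 and -0.14 in the WOd pigs 5, 6, 7 and 8. Ratios of the YOd pigs and the WOd pigs overlapped. The log2 fold change was 0.71 in YOd/Sd (SE 0.34, limma adjusted p = 0.388), whereas WOd/Sd gave -0.52 (SE 0.26, limma adjusted p = 0.998), and neither passed the thresholds. Their difference was 1.23 (SE 0.49, limma adjusted p = 0.844), which passed the thresholds. Without pig 1 the difference was 0.70 (SE 0.44), and the call was also lost without pig 4, 5 or 7. With pig 2 left out, CLDN5 passed the thresholds in YOd/Sd at 1.15, a value from 2 pigs. In that setting 326 of 2479 genes passed.

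The gene closest to CLDN5 in its levels was endothelial, although markers of other cells ran alongside too. Of 2181 genes above the floor on all 14 arrays, CDH5, the cadherin of endothelial junctions, had the pattern most like it (Pearson's r = 0.97, Spearman's rho = 0.97), followed by AXL (r = 0.94) and C1S (r = 0.94). CDH5 and CLDN5 gave r = 0.96 over the 7 Sd arrays alone, r = 1.00 over the 7 onion arrays, and r = 0.95 over the 12 arrays that remain without the pair farthest from the median of CLDN5. The arrays of a pig are not independent, and CDH5 was picked as the highest of all genes, so these values are descriptions.

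All 4 of the 8 listed endothelial markers that had a probe were above the floor on every array, and their r with CLDN5 ran from 0.48 for ENG to 0.97 for CDH5. Fibroblast markers gave 0.81 to 0.86 (3 of 6 with a probe), and lymphocyte markers above the floor on all arrays 0.47 to 0.79. The smooth muscle markers above the floor on all arrays gave 0.02 for DES, 0.23 for CNN1 and 0.62 for ACTA2. Enterocyte markers gave -0.07 to 0.03, and 6 of these 7 enterocyte markers were saturated on every array. The CDH5 ratio was 0.61, 0.26 and 0.62 in the YOd pigs and -0.26, 0.36, -0.20 and -0.08 in the WOd pigs. The difference between onions was 0.54 for CDH5 (SE 0.22, limma adjusted p = 0.844), 0.47 for PECAM1 (SE 0.22), 0.12 for VWF (SE 0.26) and -0.17 for ENG (SE 0.23), and none of these 4 passed the thresholds. The summed level of the 4 endothelial markers ranged from 2.42 to 3.08 in Sd and 2.71 to 3.12 in YOd, and from 1.89 to 3.13 in Sd and 1.96 to 3.13 in WOd for the other pigs. Fewer endothelial cells and less RNA per cell cannot be told apart in scrapings, and the part of the endothelium in the CLDN5 difference was not tested.

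**Figure D4:**
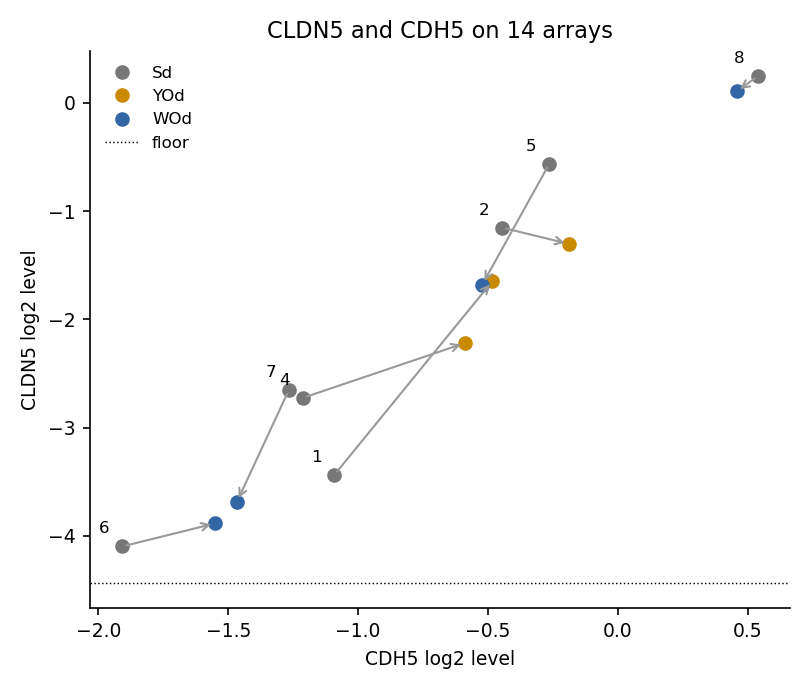
Log2 level of CLDN5 against that of CDH5 on the 14 arrays, with the Sd array of each pig in grey beside the pig's number and an arrow to its onion array (YOd yellow, WOd blue). Both genes are lowest in the Sd segment of pig 6 and highest in that of pig 8, and the points follow a rising line with r = 0.97.

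CLDN6, a claudin best known from embryonic epithelium, was the member called over both onions. Its signal was close to the floor: the Sd segments of pigs 1, 2 and 4 gave signals of 17.6, 35.5 and 33.2 and their YOd segments 29.1, 46.7 and 30.2. The Sd segments of pigs 5, 6, 7 and 8 gave 33.3, 33.3, 35.002 and 33.6, and their WOd segments 36.6, 36.0, 212 and 41.8. On 13 arrays the signal thus lay between 17.6 and 46.7, and only the WOd array of pig 7 was far above. After scaling, the Sd values of pigs 1 and 4 were at the floor, and the Sd signal of pig 8 was not well above background.

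The CLDN6 log2 ratios were 0.66, 0.52 and 0.34 in pigs 1, 2 and 4 and 0.05, 0.06, 2.68 and 0.50 in pigs 5, 6, 7 and 8. Without a floor, pigs 1 and 4 gave 0.91 and 0.49. The ratio was above 0 in 7 of 7 pigs, and the exact two-sided sign-flip permutation p was 0.0156, the smallest that 7 pigs allow. It was not adjusted for the 16 members tested in this way. CLDN6 was upregulated over both onions by 0.69 on the log2 scale (fold change 1.61, SE 0.27, limma adjusted p = 0.657). The mean without pig 7 was 0.36 (1.28-fold), below the threshold of fold change. YOd/Sd gave 0.51, with a raw p below 0.05 but a fold change under the threshold (SE 0.15, limma adjusted p = 0.388), and WOd/Sd gave 0.82 (SE 0.43, limma adjusted p = 0.998).

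The sign of CLDN6 in pig 4 depended on scaling. Without scaling, the signal was higher in 6 of 7 pigs, and in pig 4 it was lower with YOd than with Sd (30.2 and 33.2). With the ratios centred on the median of each pig, a choice made after seeing the data, 6 of 7 pigs stayed above 0 and the mean of 0.60 no longer passed (SE 0.28). The call was also lost under quantile normalization, no scaling, normexp, the authors' values, a fit that left out the replicate block, a slide block, and without pig 1 or pig 8. This probe was a single spot on each array. On the WOd array of pig 7 it was not flagged, its median pixel was 194.5 where the other arrays had 54 to 82, and its local background was 19 where they had 17 to 21. That array held 282 outlier spots and 54.9% of its probes were well above background, beside medians of 53.5 and 64.2% over all arrays. The Sd array of pig 7 was on another slide, scanned in another session, so in this pig the onion and the scan cannot be told apart.

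**Figure D5:**
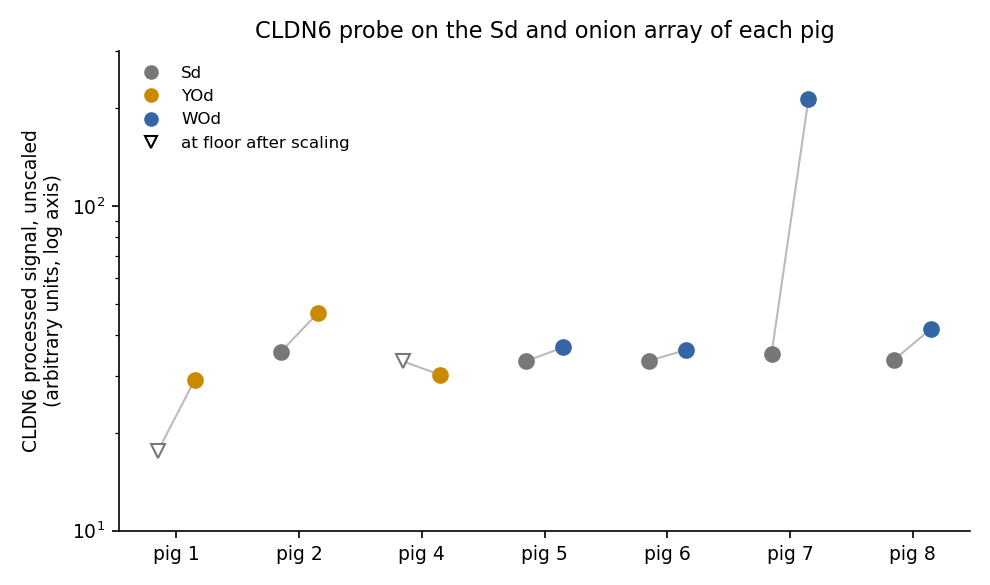
Processed signal of the CLDN6 probe (log axis, arbitrary units, not scaled) on the Sd array (grey) and the onion array (YOd yellow, WOd blue) of each pig, with open triangles for the 2 Sd arrays at the floor after scaling. The WOd array of pig 7 stands at 212, and the other 13 arrays lie between 17.6 and 46.7.

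CLDN9, the gene next to CLDN6 in the naming reference, also had its highest ratio in pig 7, at 0.87. Its WOd ratios were 0.53, 0.14, 0.87 and 0.12, all above 0, and its YOd ratios 0.11, -0.12 and 0.17. The log2 fold change was 0.42 in WOd/Sd (SE 0.18, limma adjusted p = 0.998). The second CLDN9 probe was at the floor on all arrays and gave no ratio.

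CLDN19, known from kidney and retina, had Sd levels of -3.39, -2.41 and -1.50 in pigs 1, 2 and 4 and YOd levels of -1.92, -2.38 and -1.05. The YOd ratios were 1.47, 0.03 and 0.45, so the mean of 0.65 (SE 0.27, limma adjusted p = 0.388) came largely from pig 1 and was 0.24 without it. In the WOd pigs the ratios lay between -0.05 and 0.28, with a mean of 0.12 (SE 0.14, limma adjusted p = 0.998). Over all pigs the ratio was above 0 in 6 of 7, the exact sign-flip permutation p was 0.0469 and the limma adjusted p was 0.657. Such sign-flip tests were made for all 16 tested members, without adjustment for their number. They also fell below 0.05 for CLDN6 (0.0156) and for CLDN7 (0.03125), whose saturated values allow no reading. The difference between the onions was 0.53 (SE 0.32, limma adjusted p = 0.844). CLDN19 passed the thresholds in YOd/Sd without pig 2 (0.96), as 326 of 2479 genes did in that setting.

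CLDN11, a claudin of myelin and testis, and CLDN18, of stomach and lung, were near the floor. CLDN11 was at the floor on 5 of 14 arrays and CLDN18 on 1. Both reached a raw limma p below 0.05 in YOd/Sd, at a limma adjusted p of 0.388. Their log2 fold changes of 0.41 for CLDN11 (SE 0.15) and 0.38 for CLDN18 (SE 0.15) stayed under the threshold. For CLDN11 the Sd values of pigs 2 and 4 were at the floor, so its YOd/Sd value rests on that floor. In the WOd pigs CLDN11 was above the floor in both segments of pig 6 only, with a ratio of -0.99. It was at the floor in Sd of pigs 5 and 8 and in WOd of pig 7, where the size of the ratio is set by the floor. CLDN18 gave -0.24 in pig 5, -0.57 in pig 6 and 1.36 in pig 8, where the Sd signal was not well above background, and its WOd value in pig 7 was at the floor. The second CLDN18 probe was at the floor on all arrays.

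CLDN23 and CLDND1 had 2 probes above the floor each. The brighter CLDN23 probe, the one named by the list, had ratios from -0.52 in pig 4 to 0.63 in pig 7, with no value in Sd of pig 5, so that pig dropped out of its fit. The CLDN23 probe found by accession had ratios of -0.40, -0.25 and -0.75 in the YOd pigs and -1.20, 0.54, 0.52 and 0.18 in the WOd pigs, with a mean of -0.19 ± 0.65 (SD, n = 7). The probes thus had opposite signs in pigs 1, 2 and 8, where the brighter gave 0.05, 0.08 and -0.23. CLDND1 holds a claudin domain but is no claudin proper. Its brighter probe, with no value in WOd of pig 8, gave -0.02 ± 0.28 (SD, n = 6), and the other gave -0.14 ± 0.26 (SD, n = 7).

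Genes most like a member over the 14 arrays were named for the members above the floor on all arrays. For OCLN these were HSD17B4 (r = 0.96), ABCD3 (r = 0.95) and HSD11B1 (r = 0.95). For CLDN15 they were CYP2D25 (r = 0.94) and HMOX2 (r = 0.93). For CLDN4 they were AGPAT2 (r = 0.90), NECTIN2 (r = 0.88), a nectin of adherens junctions, and P2RY2 (r = 0.87). For CLDN3 and CLDN7 the genes most like them were themselves saturated on 10 to 12 arrays, and saturated values share the scaling of their array. Among the members, the closest unsaturated pairs were CLDN2 with CLDN4 (r = 0.81) and CLDN15 with OCLN (r = 0.80). All arrays share the scaling by the 75th percentile, and the arrays come in pairs per pig.

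Partners at the tight junction were less well covered by named probes. Of 32 listed partners, 5 had a named probe, which were F11R, MARVELD3, PARD6B, MYLK and RHOA, and 0 of these were called in any comparison. MARVELD3, a relative of occludin, had a log2 fold change of 0.06 over the 7 pigs (SE 0.10). RHOA, a regulator of the actin ring, gave -0.08 (SE 0.10). MYLK, the kinase that drives contraction of that ring and a gene of smooth muscle, had -0.53 in WOd/Sd (SE 0.20, limma adjusted p = 0.998), where the raw p but not the fold change passed. Adherens junction and desmosome genes, 6 of 16 with a probe, had 0 calls, with 0.15 over the 7 pigs for CTNNB1 (SE 0.09) and 0.01 for VCL (SE 0.11).

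Of 17 listed regulators of junction genes, 10 had a probe and 9 were tested, and KLF5, a transcription factor of crypt epithelium, was called in the YOd effect minus the WOd effect. YOd/Sd gave it a log2 fold change of -0.52 and WOd/Sd 0.20, a difference of -0.72 (SE 0.26, limma adjusted p = 0.844). Of the cell type markers, CCK, a hormone of enteroendocrine cells, was upregulated in YOd/Sd by 0.92 (SE 0.27, limma adjusted p = 0.388), and 0 markers of the other 9 lists were called in any comparison. The brightest enterocyte markers, APOA1 and FABP2, and the brightest general epithelial markers, KRT8 and EPCAM, were saturated on 12 to 14 arrays, so no fold change is given for them. Over the 7 pigs the median log2 fold change was -0.22 for crypt and cell cycle markers (4 genes tested, with CCNB1 and TOP2A the brightest) and 0.20 for goblet cell markers (2 genes, CLCA1 and SPDEF). Endothelial markers (4 genes, PECAM1 and VWF) had a median of 0.20, smooth muscle markers (4 genes, DES and ACTA2) -0.18, fibroblast markers (3 genes, DCN and COL1A2) 0.13 and lymphocyte markers (5 genes, CD3G and CD3E) 0.11. The only M cell and follicle gene with a probe, CCL20, had -0.51 (SE 0.44), with ratios from -3.48 in pig 6 to 1.44 in pig 7.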

How the data were processed

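For each spot, the authors deposited Feature Extraction output (protocol 10.7.3.1) with its processed signal and the intensity of spot and local background, and also a table of log2 values whose scaling is not given in the sources used here. Each column of that table correlated best with its own array (r from 0.977 to 0.993), with column medians from -0.049 to 0. After removal of outlier spots, a probe's mean signal was scaled by the 75th percentile per array, raised to a common floor (the 40th percentile over all arrays) and log2 transformed. Probes were named from RefSeq accessions with the Sscrofa11.1 reference, used for names alone, and the brightest probe represented its gene. Tested genes exceeded the floor on at least 3 arrays for YOd/Sd, 4 for WOd/Sd, and for the fits over all pigs as many as the smaller group held.

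All named genes were fitted with limma 3.58.1 (R 4.3.3), blocking on pig. The methods state a paired analysis, and after group means were removed the segments of a pig correlated at r = 0.312 (pig 7) to 0.791 (pig 1). Ratios over pigs were put to exact sign-flip permutation tests in Python 3.11.15. The p-values set mean ratios within a pig against the spread of these ratios over the pigs, moderated over genes in limma. With a single segment per fluid measured in a pig, that spread also holds differences between segments and arrays. The number of arrays limits the precision. The fits were tested on simulated data. Members and lists were chosen with earlier results of these data known. By rule, the text names every member, the genes of other lists past the thresholds or else the 2 brightest, and the 3 genes most like a member, of which 1 is not reported here. Alternatives covered scaling, background, floor, filter, probe, values, block, slide and pigs left out, and centring on each pig's median was chosen after seeing the data.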

Additional observations from a re-analysis of the deposited data

Results flagged for a closer look

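Levels in Sd and WOd segments and ratios over all pigs were searched for a value far from the others in 47 groups of the 16 tested members, and 8 groups held such a value. For independent, normally distributed values chance gives about 1 in 20. The groups share arrays, and some hold values at the floor or saturated, so 8 of 47 cannot be set against that rate. The CLDN6 level of -1.39 in the WOd segment of pig 7 and the CLDN6 ratio of 2.68 in pig 7 lay far above the other pigs. The CLDN19 ratio of 1.47 in pig 1 and the CLDN19 level of -1.60 in the WOd segment of pig 5 were high. The CLDN11 level of -2.97 in the Sd segment of pig 6 was the highest of its group, in which 4 of 7 values were at the floor. The CLDN15 level of 4.13 in the WOd segment of pig 7 was low. The CLDN3 level of 7.15 in the WOd segment of pig 5 and the CLDN7 ratio of 0.61 in pig 4 were measured on saturated spots, and without scaling the latter was -0.02. CLDN5 stood out by the test of the YOd effect minus the WOd effect, 1.23 on the log2 scale.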

How the results depend on the processing

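The number of members past the thresholds in YOd/Sd, 0 of 16, was 1 (CLDN6) with no floor or a floor at the 20th percentile, 2 (CLDN5 and CLDN19) with the slide as a block or without pigs 2 and 7, and 0 to 2 with each pig left out (2 without pig 2, 1 without pig 4). Over all genes, YOd/Sd called 126 of 2464 with no floor and 127 of 2747 with the floor at the 20th percentile. It called 325 of 2449 with the slide as a block, 326 of 2479 without pig 2 and 59 of 2472 without pig 4. WOd/Sd gave 0 to 2 with each pig left out: CLDN4 without pig 5, and CLDN5 and CLDN11 without pig 6. Over all genes, WOd/Sd called 56 of 2454 without pig 5 and 44 of 2467 without pig 6. For both onions together, 1 became 0 with quantile normalization, no scaling, normexp, the authors' values, no replicate block, the slide as a block, without pigs 2 and 7, and centring on each pig's median, and ranged from 0 to 1 with each pig left out (0 without pig 1, 7 or 8). For the difference between the onion effects, 1 became 0 with quantile normalization or no replicate block and 2 with the slide as a block or without pigs 2 and 7, and ranged from 0 to 2 with each pig left out (0 without pig 1, 4 or 7). Over all genes, the difference called 197 of 2553 with the slide as a block and 198 of 2573 without pigs 2 and 7. Without the replicate block, CLDN6 kept 0.69 (SE 0.33) and CLDN5 1.23 (SE 1.499), both no longer past the thresholds. With no scaling CLDN5 gave 0.96 and lost its call, and CLDN9 was called instead.

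OCLN in YOd/Sd reversed with no scaling (-0.10). The CLDN6 difference between onions, -0.32, became 0.29 with the slide as a block, 0.29 without pigs 2 and 7 and 0.30 without pig 7, and ranged from -0.57 to 0.30 with each pig left out. Adjusted p over all alternatives ranged from 0.359 to 0.999 for CLDN6 over both onions and from 0.570 to 0.999 for the CLDN5 difference in limma. Of 396 values of 22 tested fold changes, 360 kept their direction and side of the thresholds. Only CLDN6 over both onions and the CLDN5 difference had a call to lose, so this count says little about the calls. CLDN6 and CLDN5 had 20 alternatives each there, and 18 of these values lost the call. Among the other fold changes, 14 values gained a call and 4 reversed. Leaving out a pig of the other onion gives YOd/Sd and WOd/Sd no new value. The cause of these changes was not tested.

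Calls over all genes, 114, 29, 30 and 93 in YOd/Sd, WOd/Sd, both onions and the difference, became 66, 13, 19 and 51 with normexp, 20, 10, 11 and 5 with no replicate block, 325, 91, 80 and 197 with the slide as a block, and 326, 90, 80 and 198 without pigs 2 and 7. With the authors' values YOd/Sd gave 64, WOd/Sd 14 and the difference 57, quantile normalization gave YOd/Sd 63, no scaling 16 for both onions, a floor at the 20th percentile 51 in WOd/Sd and 47 for both onions, and centring 19 for both onions. Fitting every probe gave 1298, 339, 223 and 1601 among 26013 to 28340 probes. With each pig left out the calls ranged from 56 to 326, 44 to 90, 17 to 50 and 45 to 157. Saturation leaves CLDN3 and CLDN7 without a usable fold change in most pigs, and CLDN6, CLDN11 and CLDN18 lie near the floor, where a single spot per array limits what can be seen.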

Other observations

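The remaining members above the floor on all 14 arrays had the following closest genes, given as descriptions since each was picked as the highest of 2181 genes. CLDN2 was most like AGPAT4 (r = 0.87), AGPAT2 (r = 0.85) and FOLR2 (r = 0.85), and AGPAT2 was also the gene most like CLDN4. CLDN9 was most like ATF4 (r = 0.87), STARD3 (r = 0.86) and CHORDC1 (r = 0.84). CLDN10 was most like CELA2A (r = 0.81), IL5 (r = 0.80) and BZW1 (r = 0.79). CLDN12 was most like PRLR (r = 0.81), SLC16A1 (r = 0.78) and VDAC1 (r = 0.72), and CLDN19 was most like PTI (r = 0.84), MMP9 (r = 0.76) and AP3S2 (r = 0.75). Likeness over arrays did not always go with likeness of the onion ratios: over the 7 pigs, the ratios of CLDN2 and FOLR2 gave r = -0.48, whereas those of CLDN12 and SLC16A1 gave r = 0.89.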
